A study of Lemna aequinoctialis with 6 samples.

Results

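The metal, sulfate, potassium and water transport genes described here are 50 transcripts of 23 assembled genes of the duckweed Lemna aequinoctialis, a small plant that floats on still water. They were chosen by the words of their gene descriptions, which the authors' deposited table gives for 5093 transcripts, out of 81787 transcripts of 28620 genes measured. Plants given indole-3-propionic acid (IPA), an indole acid that resembles the plant hormone auxin, were compared with control plants, 3 samples of each. RNA from ground, freeze-dried plants, for which the labels name plant cells as the source, was sequenced as stranded mRNA libraries, and the study's title sets the comparison in work on growth and useful metabolites in culture. The labels give no dose, duration, plant age or handling of the control, and they do not say whether replicates came from separate cultures, so the p-values cover only how far these samples vary, and that variation may be technical. The descriptions exist only for transcripts that the authors had called as different between the same 6 libraries, at a log2 fold change of at least 1.00 in size and an FDR under 0.05. The differences given below are therefore a description of chosen transcripts and not independent evidence that these genes respond.

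Plants take up sulfate and potassium from the medium through proton-coupled carriers and channels of the plasma membrane, and move metals such as iron, copper and zinc bound to small chelators, of which nicotianamine is one. Iron in excess is kept in the shell of ferritin, which in plants sits in plastids, or is loaded into the vacuole. Copper chaperones and heavy metal-associated isoprenylated plant proteins (HIPPs) bind metal ions in the cytosol or at membranes. Aquaporins are channels for water and small neutral solutes: the PIP type lies in the plasma membrane, the TIP type in the vacuolar membrane, the SIP type in the endoplasmic reticulum, and the NIP type carries boric acid or silicic acid in several land plants. A duckweed frond lies on its nutrient medium and takes up ions through the frond as well as the root.

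The libraries held 30149649 to 45233584 reads. Levels are normalised read counts per transcript, scaled per library by the authors and not divided by length, so they are compared between libraries and not between genes. One read was worth 0.0205 to 0.0318 of this unit, and a floor of 3 reads 0.0614 to 0.0954. Sets of 3 values are in the order of replicates 1, 2 and 3. Each fold change is IPA over control with its standard error (n = 3 per group), computed on log2(value + 0.5), so changes of low transcripts come out too small. A transcript is said to have risen or fallen where limma's FDR, adjusted by Benjamini-Hochberg over all 78722 transcripts tested, was under 0.05. Pearson correlations of log2 levels across transcripts were 0.968 to 0.988 within IPA and 0.936 to 0.974 within control, and control 3 correlated with IPA 1 at 0.961. Summed levels of the 43 listed transcripts of chlorophyll a-b binding proteins, markers of green tissue, lay between 5269 and 7301 in IPA and between 1128 and 1741 in control, and none of them was at 0 in any library. Their part in the differences below was not tested. In RNA of ground plants, fewer cells of a type and less RNA per cell cannot be told apart.

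Most of the transport transcripts stood lower in IPA. Of the 50, 36 had a lower and 14 a higher level, and these came from 18 and 5 genes, with none of the genes holding listed transcripts of both directions. All 50 passed the filter on low values. By limma 23 fell, 11 rose and 16 did not pass, against a background of 8.37% of all transcripts called, 3.87% fallen and 4.49% risen, from which nothing is read because the same contrast chose the members. The median log2 fold change was -0.91 over the 50, 0.02 over all transcripts tested and 0.58 over the 5093 deposited ones. In the deposited list as a whole 49.2% of transcripts had a negative fold change in the authors' deposited table. Ferritin, the vacuolar aquaporin TIP2-1 and a PIP-type aquaporin gene made up all 11 that rose, while HIPPs, YSL metal transporters, NIP, SIP and TIP5-1 aquaporins, a sulfate transporter and a copper chaperone made up the 23 that fell. The 3 IPA values lay all below the 3 control values in 31 transcripts (16.3% over all tested) and all above them in 14 (16.6%), and the groups overlapped in 5.

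Calls depended on single libraries. Without control 2, IPA 1, IPA 2 or IPA 3 the limma fit called 4, 17, 2 and 14 of the 50, and without control 1 or control 3 it called 30 and 47. Without IPA 2 or IPA 3 the number that rose was 0, with 47 and 49 of the 50 at an unadjusted limma p under 0.05. Such counts at an unadjusted p, here and below, are raised by the choice of the members on these same libraries. They are not support for the lost calls. The sign of the fold change was that of the full fit in 50 of 50 transcripts in each of these 6 fits. The authors' cutoffs on the same libraries, which chose the members, favour a kept sign, so nothing is read from it. When libraries were scaled by their read totals in place of the authors' scaling, which moved the median of all transcripts up by 0.23 log2, 14 rose and 19 fell, so that 42.4% of the calls were rises against 32.4% here. Of the calls made here 6 were lost with that scaling, namely CCH, NIP5-1, the HIPP 39 transcript of its second gene and 1 transcript each of YSL6, TIP5-1 and SIP2-1 (limma FDR 0.0591 to 0.0793), and 5 others were gained. The same TIP5-1 transcript was the only call lost with edgeR's quasi-likelihood test (FDR 0.0520).

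**Figure D1:**
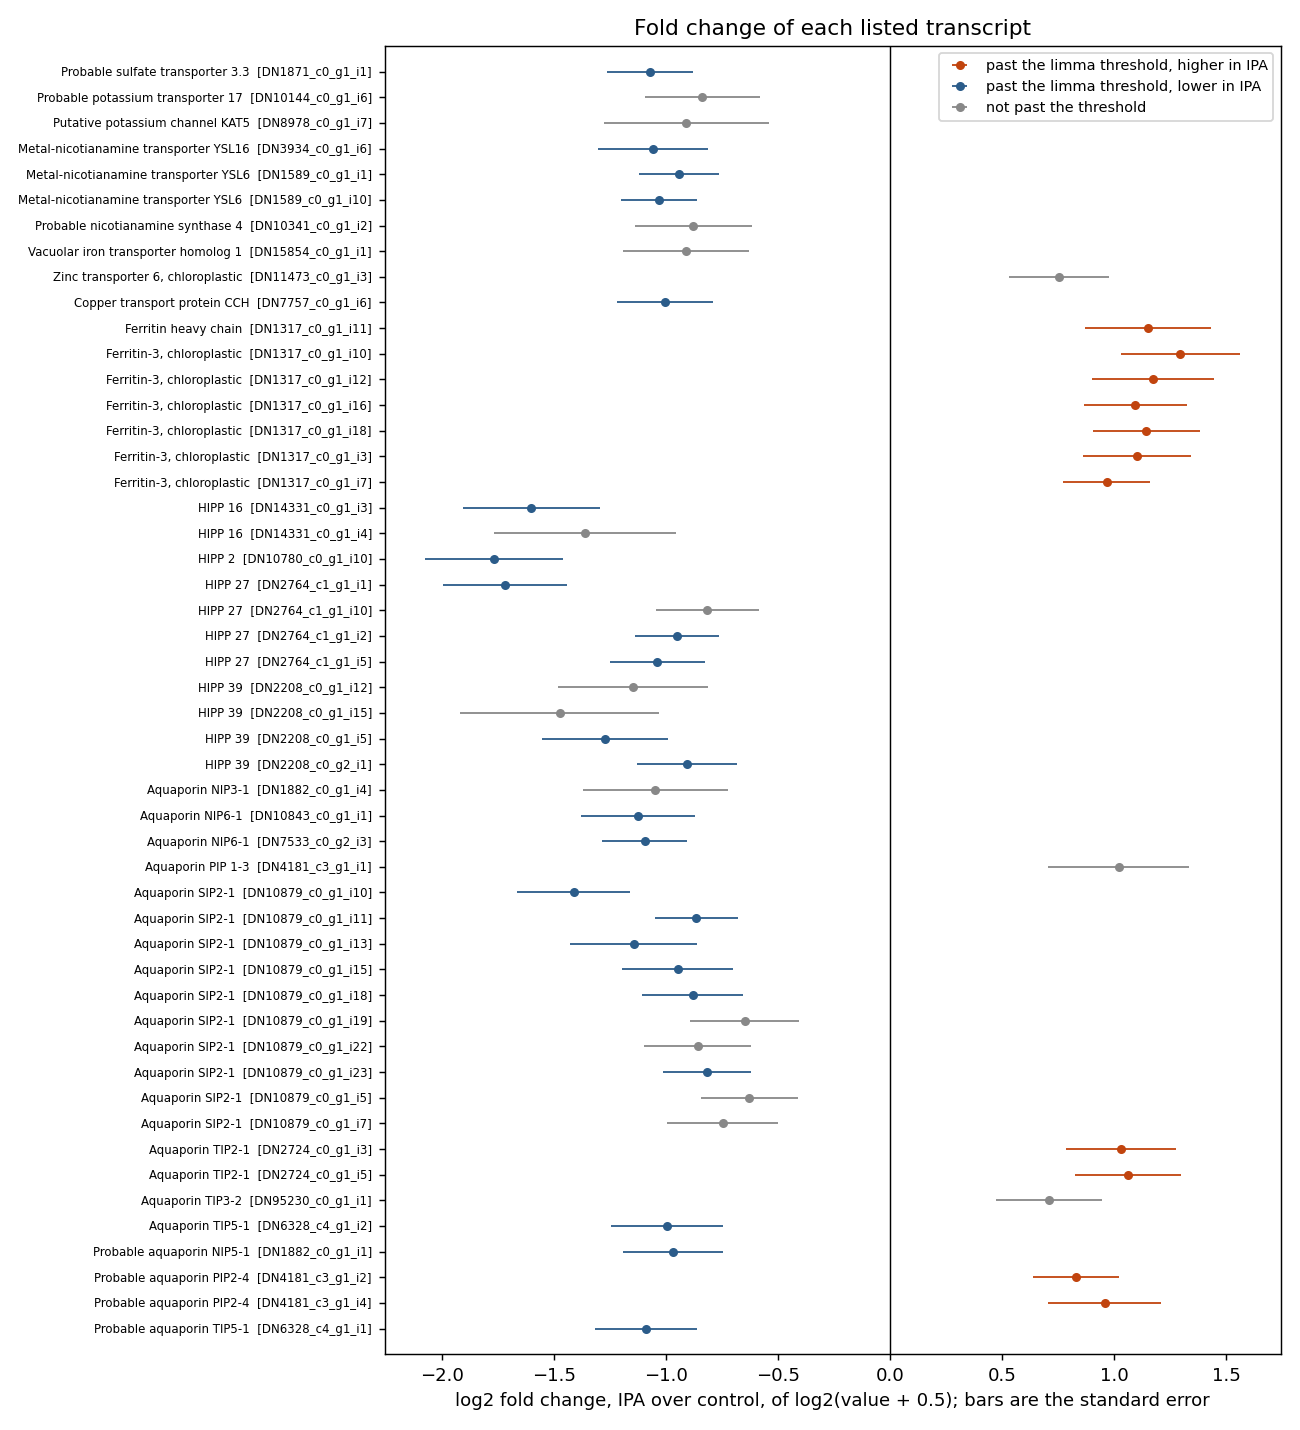
Log2 fold change of IPA over control for each of the 50 listed transcripts (x axis, on the log2(value + 0.5) scale, bars the standard error), with one row per transcript and its assembly name in brackets. Points left of 0 are lower in IPA: 36 lie there and 14 lie right of 0, among them all 7 ferritin transcripts, and grey points did not pass limma's threshold.

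Probable sulfate transporter 3.3 (TRINITY_DN1871_c0_g1), of the plant family that carries sulfate across membranes together with protons, fell in IPA. Its listed transcript stood at 32.5, 30.1 and 26.8 in IPA, against 50.0, 67.6 and 73.6 in control. All 3 IPA values were below the lowest control value, and control 1 was the lowest control (log2 -1.07 ± 0.19). Summed over its 4 isoforms the gene was at 98.8, 89.9 and 84.5 in IPA, against 120.2, 182 and 192 in control, also without overlap (log2 -0.82 ± 0.20). With library totals the gene's sum did not pass limma's threshold (log2 -0.52, FDR 0.160). Its transcript no longer passed in the limma fit without control 2 (FDR 0.0664) or without IPA 2 (0.0652).

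Both potassium genes had lower means in IPA and neither passed limma's threshold. Probable potassium transporter 17 (TRINITY_DN10144_c0_g1), of the KUP/HAK/KT family of potassium carriers, had a listed transcript at 1.38, 0.983 and 0.816 in IPA, against 2.35, 3.15 and 1.51 in control. The groups did not overlap, and control 3 came nearest to the IPA values (log2 -0.84 ± 0.26). Putative potassium channel KAT5 (TRINITY_DN8978_c0_g1), of a type of channel that lets potassium into cells, had a listed transcript at 3.27, 2.74 and 4.05 in IPA, against 11.8, 7.32 and 3.34 in control. Control 1 was far above the rest and control 3 lay within the IPA range (log2 -0.91 ± 0.37). The sum over the 6 KAT5 isoforms overlapped between groups as well, at 19.7, 20.4 and 30.3 in IPA, against 63.8, 37.1 and 19.2 in control.

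Genes around nicotianamine, a metal chelator that plants make from S-adenosylmethionine, were lower in IPA in each of the 3 cases listed. The pair of YSL transporters, of a family that moves metal-nicotianamine complexes across membranes, fell. YSL6 (TRINITY_DN1589_c0_g1), described as a manganese transporter in rice, had 2 listed transcripts, the more abundant at 5.60, 5.71 and 5.31 in IPA, against 10.9, 12.6 and 12.1 in control. The spread within each group was small next to the gap between them (log2 -1.03 ± 0.17). YSL16 (TRINITY_DN3934_c0_g1), known in rice for transport of copper and iron with nicotianamine, stood at 2.53, 3.73 and 3.58 in IPA, against 9.11, 8.33 and 5.06 in control. IPA 1 was the lowest and control 3 the nearest control (log2 -1.06 ± 0.25). Probable nicotianamine synthase 4 (TRINITY_DN10341_c0_g1), the enzyme that makes the chelator, stood at 1.87, 1.84 and 1.19 in IPA, against 3.56, 4.68 and 2.26 in control, without overlap, and did not pass (log2 -0.88 ± 0.26). Of the 3 YSL calls 1 was kept without control 2 (limma FDR 0.0498 to 0.116), 1 without IPA 1 (0.0272 to 0.0969), 0 without IPA 2 (0.0522 to 0.0895) and 2 without IPA 3 (0.0309 to 0.0688), and in the fit without IPA 2 all 3 had an unadjusted limma p under 0.05.

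Genes of iron storage differed in sign, and of these ferritin alone passed. Ferritin, the iron store of plastids, rose in all 7 listed transcripts of 1 gene (TRINITY_DN1317_c0_g1), with log2 fold changes of 0.97 to 1.30. Its most abundant listed transcript, described as Ferritin-3, chloroplastic, stood at 82.2, 103 and 124 in IPA, against 33.3, 48.8 and 58.6 in control. The lowest IPA library was above the highest control library (log2 1.14 ± 0.24). The transcript with the largest fold change stood at 7.21, 9.83 and 11.5 in IPA, against 2.26, 4.71 and 3.98 in control, and control 1 was again the lowest of all (log2 1.30 ± 0.26). One transcript carries the name Ferritin heavy chain, a name used for animal ferritins, and stood at 5.34, 7.57 and 7.96 in IPA, against 1.81, 4.45 and 2.68 in control; it belongs to the same assembled gene as the 6 plastid-named ones (log2 1.15 ± 0.28). Over all 12 isoforms the gene was at 312, 398 and 469 in IPA, against 131, 208 and 240.0 in control (mean 393 ± 78.6 in IPA and 193 ± 56.2 in control, SD, n = 3 each). Isoforms of 1 assembled gene share sequence and may share reads, so the 7 transcripts are not 7 separate observations. All 7 calls were lost without IPA 2 (limma FDR 0.0872 to 0.141) or IPA 3 (0.0634 to 0.112), and 2 were kept without control 2 (0.0355 to 0.0776); without IPA 1 all 7 were kept. The Vacuolar iron transporter homolog 1 (TRINITY_DN15854_c0_g1), of a family that loads iron into the vacuole, had its single transcript at 0.862, 1.29 and 2.10 in IPA, against 2.78, 4.20 and 2.24 in control. IPA 3 came close to control 3, and the transcript did not pass (log2 -0.91 ± 0.28).

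Copper transport protein CCH (TRINITY_DN7757_c0_g1), named after a copper chaperone of Arabidopsis that hands copper to its targets in the cell, fell in IPA. Its only isoform stood at 314, 315 and 398 in IPA, against 779, 785 and 523 in control. IPA 1 and IPA 2 were nearly equal, and the highest IPA library, IPA 3, was below the lowest control, control 3 (log2 -1.01 ± 0.21). It no longer passed in the limma fit without control 2 (FDR 0.103), without IPA 1 (0.0732) or without IPA 2 (0.118), or with library totals (0.0665, log2 -0.70). Zinc transporter 6, chloroplastic (TRINITY_DN11473_c0_g1), of the ZIP family that brings zinc and related metals into the cytosol or an organelle, had 1 listed transcript of 4, at 1.84, 1.35 and 1.61 in IPA, against 0.483, 1.02 and 0.778 in control. Its groups did not overlap, yet it did not pass (log2 0.75 ± 0.22). The gene's sum over 4 isoforms overlapped between groups, at 5.14, 4.54 and 4.60 in IPA, against 2.57, 4.45 and 4.85 in control (log2 0.28 ± 0.25).

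The HIPPs, metallochaperone-like proteins with a metal-binding domain and a lipid tail, had a lower mean in IPA in every listed transcript. Their 5 genes had 11 listed transcripts, of which 7 fell and 4 did not pass, with log2 fold changes of -1.77 to -0.82. HIPP 2 (TRINITY_DN10780_c0_g1) had the largest of all 50 on the log2(value + 0.5) scale, at 0.373, 0.491 and 0.470 in IPA, against 4.80, 2.54 and 1.56 in control, from 13, 24 and 19 reads in IPA and 159, 80 and 68 reads in control (log2 -1.77 ± 0.31). All IPA libraries were alike, and the controls were spread widely, highest in control 1 and lowest in control 3. HIPP 27 (TRINITY_DN2764_c1_g1) had all of its 4 isoforms listed, and its most abundant one stood at 4.05, 4.71 and 6.89 in IPA, against 25.0, 18.9 and 12.1 in control (log2 -1.72 ± 0.28). The other 3 had log2 fold changes of -1.04 ± 0.21, -0.95 ± 0.19 and -0.82 ± 0.23, of which the last did not pass. The gene's sum was at 7.38, 8.23 and 10.3 in IPA, against 34.5, 26.8 and 19.2 in control, with the controls again in the order 1, 2, 3 from high to low (log2 -1.55 ± 0.24). HIPP 16 (TRINITY_DN14331_c0_g1) had a transcript that fell, at 1.01, 1.37 and 1.43 in IPA, against 6.91, 6.08 and 2.63 in control (log2 -1.60 ± 0.31), and one with overlapping groups, in which IPA 3 at 2.13 stood above control 3 at 1.78.

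HIPP 39 was the description of a pair of assembled genes with the same cluster name. The first (TRINITY_DN2208_c0_g1) had its most abundant listed transcript at 34.6, 32.9 and 64.4 in IPA, against 143, 91.8 and 62.1 in control. IPA 3 was far above IPA 1 and IPA 2 and higher than control 3, so the groups overlapped and the transcript did not pass (log2 -1.15 ± 0.34), as was the case for another with log2 -1.48 ± 0.44. A rarer transcript of that gene fell, at 5.66, 5.42 and 6.70 in IPA, against 21.9, 16.7 and 9.10 in control (log2 -1.27 ± 0.28), and so did the single transcript of the second gene (TRINITY_DN2208_c0_g2), at 1.69, 1.72 and 2.25 in IPA, against 5.22, 3.82 and 3.07 in control (log2 -0.91 ± 0.22). Among the 7 HIPP calls, 6 were kept without control 1 (limma FDR 0.00446 to 0.0514), 1 without control 2 (0.0494 to 0.106), 4 without IPA 1 (0.0227 to 0.108), 2 without IPA 2 (0.0408 to 0.155) and 4 without IPA 3 (0.0119 to 0.0666). The 2 kept without IPA 2 were HIPP 2 and the most abundant HIPP 27 transcript, the only ones of the 50 called in that fit.

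**Figure D2:**
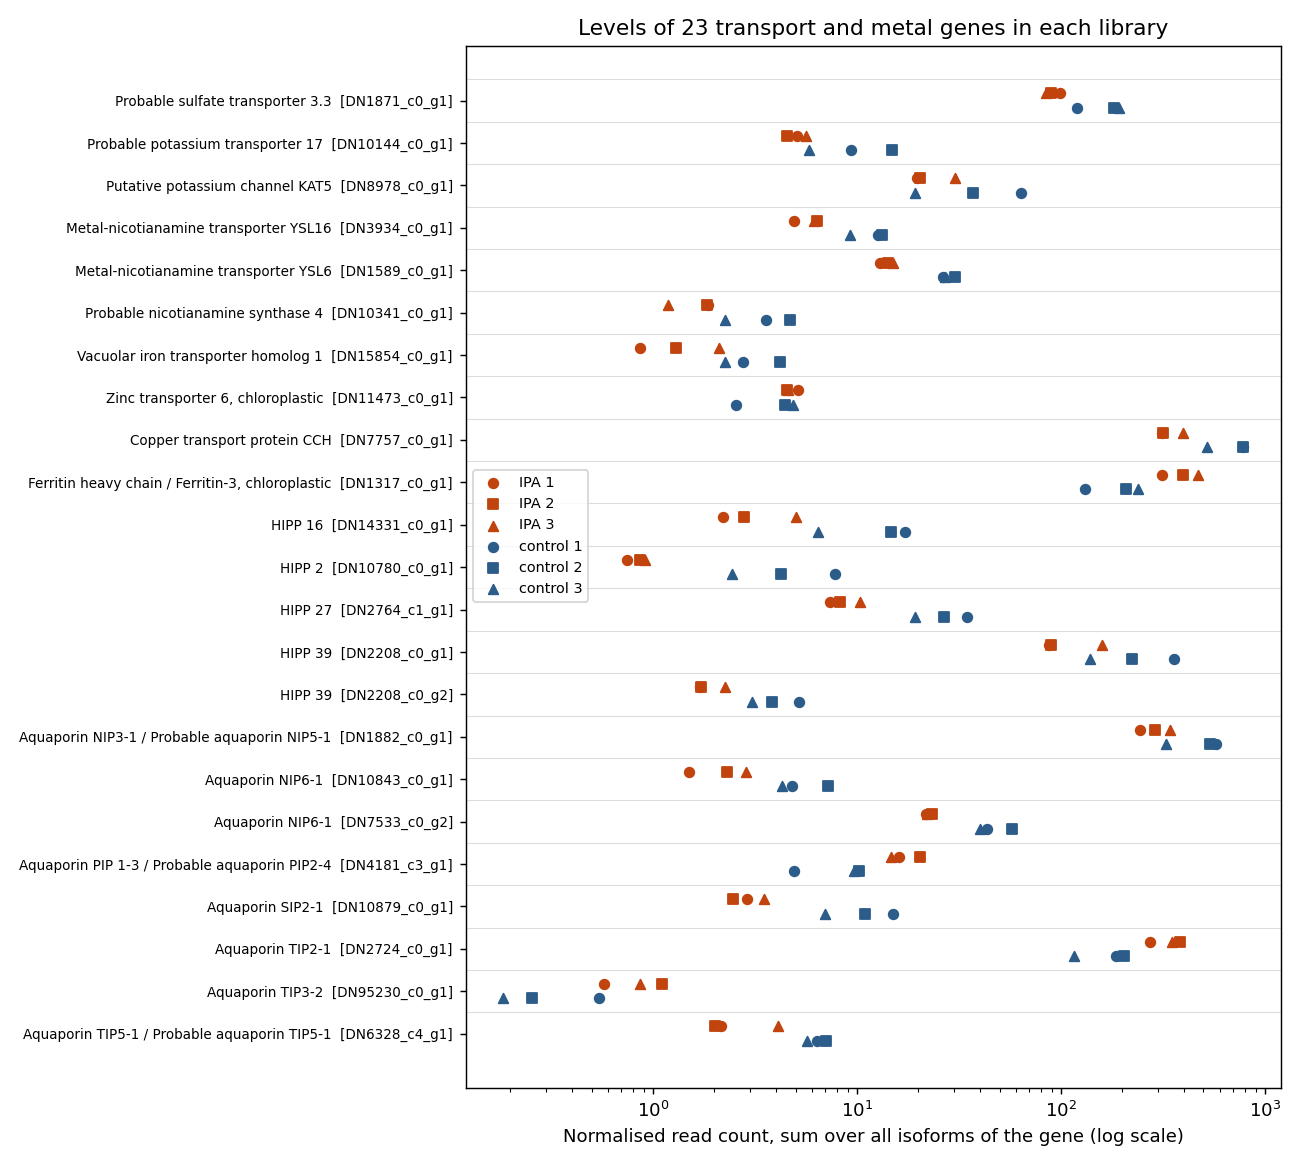
Level of each of the 23 genes in each library, as the sum of normalised read counts over all isoforms (x axis, log scale), IPA libraries in the upper line of each row and control libraries in the lower line. IPA lies below all controls in 15 genes and above them in 4, and control 3 (blue triangle) is often the control nearest to IPA or among its values, as in HIPP 39 and KAT5.

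Aquaporins went both ways. Of 8 genes with 22 listed transcripts, 4 transcripts rose, 11 fell and 7 did not pass. TIP2-1 (TRINITY_DN2724_c0_g1), a water channel of the vacuolar membrane, rose in both listed transcripts, the more abundant at 89.1, 121 and 107 in IPA, against 56.8, 62.8 and 34.9 in control (log2 1.06 ± 0.24). Over its 4 isoforms the gene was at 274, 383 and 351 in IPA, against 187, 204 and 116 in control, with the lowest IPA library above the highest control (log2 1.02 ± 0.24). A plasma membrane type gene (TRINITY_DN4181_c3_g1) carried the names PIP 1-3 and PIP2-4 on its 3 isoforms and was at 16.1, 20.3 and 14.6 in IPA, against 4.92, 10.3 and 9.65 in control as a sum (log2 1.05 ± 0.28). Its PIP2-4 transcripts both rose, and the PIP 1-3 transcript, at 10.1, 11.9 and 7.78 in IPA, against 2.44, 6.27 and 6.06 in control, did not pass (log2 1.02 ± 0.32). TIP3-2 (TRINITY_DN95230_c0_g1), of a TIP group known from seed vacuoles, rested on few reads, 20, 54 and 35 reads in IPA and 18, 8 and 8 reads in control, and did not pass (log2 0.71 ± 0.24).

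The listed NIP, SIP and TIP5-1 transcripts had lower means in IPA. NIP5-1 and NIP6-1 are boric acid channels in Arabidopsis. The gene that carried the names NIP5-1 and NIP3-1 (TRINITY_DN1882_c0_g1) had its NIP5-1 transcript at 52.1, 57.5 and 60.4 in IPA, against 143, 121 and 79.4 in control. IPA lay below every control, with control 3 nearest (log2 -0.97 ± 0.22). Its NIP3-1 transcript stood at 23.8, 28.5 and 37.7 in IPA, against 99.8, 62.0 and 37.4 in control, where IPA 3 and control 3 were nearly equal, and it did not pass (log2 -1.05 ± 0.33). Summed over its 9 isoforms this gene was at 243, 290 and 343 in IPA, against 575, 537 and 328 in control. The groups overlapped and the sum did not pass (log2 -0.69 ± 0.24). The listed transcripts held a mean of 29.8% of the gene in IPA and 37.3% in control. One of a pair of NIP6-1 genes (TRINITY_DN7533_c0_g2) had a listed transcript at 13.7, 15.4 and 14.2 in IPA, against 29.2, 39.3 and 26.9 in control (log2 -1.10 ± 0.19), and the other (TRINITY_DN10843_c0_g1) stood at 1.49, 2.31 and 2.87 in IPA, against 4.83, 7.19 and 4.28 in control (log2 -1.12 ± 0.26). Neither overlapped between groups. TIP5-1 (TRINITY_DN6328_c4_g1), a vacuolar type that in Arabidopsis is linked to pollen, was at 2.15, 2.01 and 4.08 in IPA, against 6.37, 7.06 and 5.72 in control over its 2 listed isoforms (log2 -1.14 ± 0.26).

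SIP2-1 (TRINITY_DN10879_c0_g1), a small basic aquaporin of the endoplasmic reticulum, gave 10 of the 50 transcripts from 1 gene, so that its weight in the counts above comes from the splitting of 1 gene. Of these, 6 fell and 4 did not pass, and each rests on few reads, 2 to 30 in an IPA library and 12 to 79 in a control library. In 4 of the 10 no library reached 1 normalised read. The transcript with the largest fold change had 0.287, 0.123 and 0.297 in IPA, against 2.20, 1.37 and 0.961 in control (log2 -1.41 ± 0.25). The gene's sum over 13 isoforms was at 2.90, 2.48 and 3.48 in IPA, against 14.9, 10.9 and 7.00 in control, with the lowest control, control 3, above the highest IPA library (log2 -1.68 ± 0.28). Of the 15 aquaporin calls, 11 were kept without control 1 (limma FDR 0.00371 to 0.0661), 4 without IPA 1 (0.0256 to 0.119) and 5 without IPA 3 (0.0199 to 0.112), while none was kept without control 2 (0.0505 to 0.130) or IPA 2 (0.0502 to 0.198), fits in which 49 and 47 of the 50 transcripts had an unadjusted limma p under 0.05.

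Summed by gene, 12 of the 23 fell, 3 rose and 8 did not pass by limma over all 27203 gene sums tested, of which 10.3% were called, 4.68% fallen and 5.65% risen. The 3 were ferritin, TIP2-1 and the PIP gene. The sum of every gene had the sign of its listed transcripts, with a median log2 fold change of -0.91 over the 23 and 0.05 over all gene sums, and with IPA below all controls in 15 genes (16.0% over all) and above in 4 (18.8%). The sums contain the listed transcripts, which in 9 genes are all of the isoforms, and the same contrast chose these transcripts. Nothing is therefore read from the signs, the median or the counts of the sums. The sums that did not pass were those of the potassium transporter, KAT5, nicotianamine synthase, the vacuolar iron transporter, the zinc transporter, TIP3-2, the NIP3-1 and NIP5-1 gene and the first HIPP 39 gene. Without control 2, IPA 1, IPA 2 or IPA 3, limma called 0, 7, 1 and 8 of the 23 gene sums, with 17, 18, 18 and 21 at an unadjusted p under 0.05. The gene kept without IPA 2 was HIPP 27. With library totals, which moved the median gene sum by 0.24 log2, 4 rose and 8 fell, 33.3% rises against 20.0% here. The sums of YSL6, YSL16, the sulfate transporter and the second HIPP 39 gene then lost their calls (limma FDR 0.0513 to 0.160) and TIP3-2 gained one, and with edgeR's quasi-likelihood test the PIP gene did not pass (FDR 0.0504).

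Isoforms outside the deposited list show how far the listed transcripts stand for their gene. The 14 genes with such isoforms held 44 of them. Of the 42 tested, 4 fell, 2 rose and 36 did not pass by limma, where 4.21% of all transcripts outside the list were called, 1.99% fallen and 2.22% risen. Their median log2 fold change was -0.52. Both that rose belong to TIP2-1, so all 4 of its isoforms rose, and the 4 that fell belong to HIPP 2, HIPP 16, YSL6 and a NIP6-1 gene. Unlisted isoforms may share reads with the listed isoforms through which their gene was chosen, so they are not separate observations. Nothing is read from their counts beside the shares over all transcripts outside the list. The unlisted ferritin isoforms, 5 in number, had IPA above control without overlap, as 14.4% of all transcripts outside the list did, and none of the 5 passed (limma FDR 0.0502 to 0.0764, each with an unadjusted p under 0.05). Their sum stood at 138, 179.5 and 211 in IPA, against 60.7, 98.9 and 122 in control. Unlisted isoforms of the zinc transporter were at 3.30, 3.19 and 2.99 in IPA, against 2.08, 3.44 and 4.07 in control in sum, with overlap and a ratio of group means of 0.989. In that gene the listed transcript held 33.5 ± 3.27% of the gene's reads in IPA and 19.2 ± 3.43% in control (SD, n = 3 each). The sulfate transporter's listed transcript held 32.7 ± 0.917% in IPA and 39.1 ± 2.31% in control, and its unlisted isoforms summed to 66.4, 59.8 and 57.8 in IPA, against 70.2, 115 and 118 in control. KAT5's listed transcript was only 14.5 ± 1.85% of its gene in IPA and 18.6 ± 1.17% in control. Shares differed without overlap, in the direction of the listed fold change, in 8 of the 14 genes, a direction that the choice of the most changed transcripts favours. How often such shares separate in other genes was not computed. Levels of all gene sums tested separated without overlap in 34.8%, so nothing is read from the 8.

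**Figure D3:**
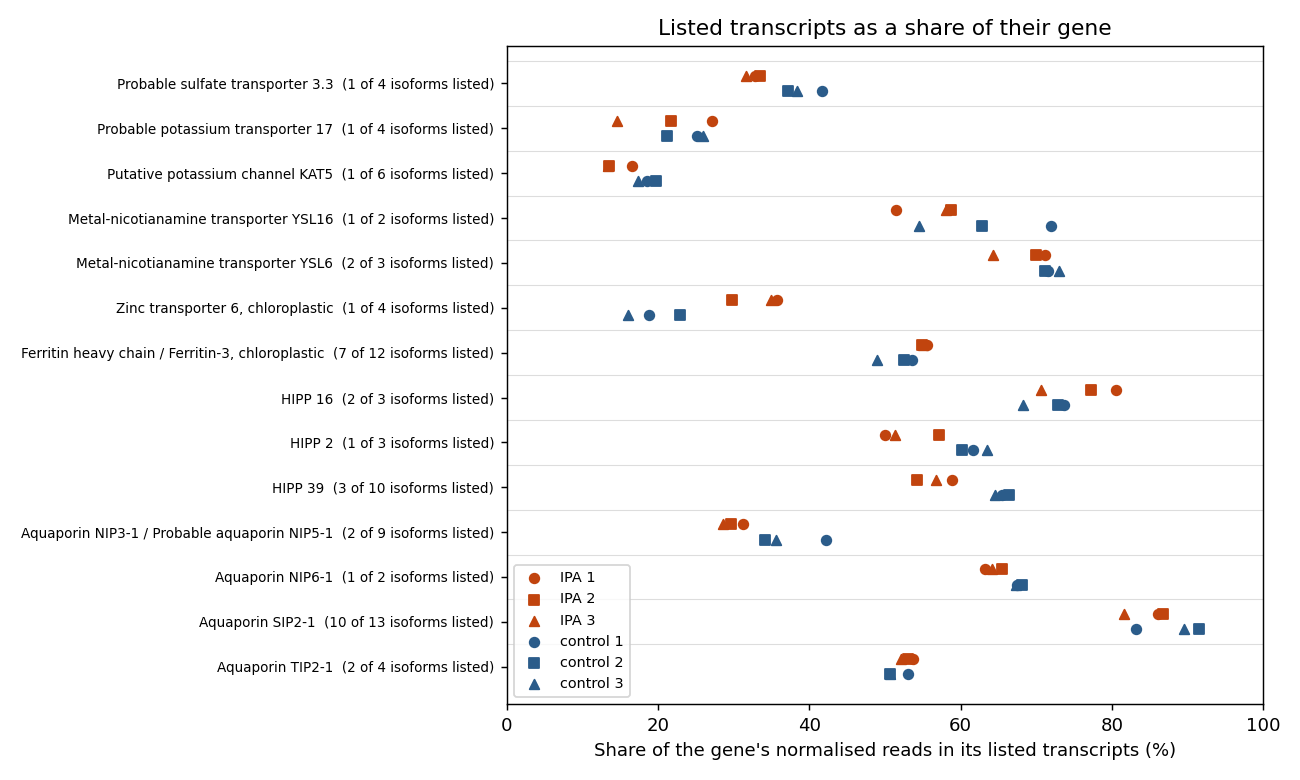
Share of each gene's normalised reads held by its listed transcripts (x axis, %), in the 14 genes that also have unlisted isoforms, with IPA libraries in the upper line of each row and control libraries in the lower. The zinc transporter's share is higher in all IPA libraries (mean 33.5%) than in all control libraries (mean 19.2%), and the SIP2-1 gene is covered for the most part by its listed transcripts (mean 84.8% in IPA and 88.1% in control).

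The control libraries did not lie at the same distance from IPA. By the correlations of log2 levels control 1 was the most distant control, at 0.960 with control 2 and 0.936 with control 3, which correlated with each other at 0.974. Among the 36 transcripts with a lower level in IPA, whether or not they passed, control 3 held the lowest control value in 91.7% and control 1 the highest in 58.3%. Over all 3049 transcripts that fell, a set of calls only, these shares were 68.8% and 69.5%. Of the 23 members that fell, control 1 was the highest control in 11. The median log2 difference of the IPA mean was -1.18 against control 1, -1.14 against control 2 and -0.58 against control 3 in those 36. In the 14 transcripts with a higher level in IPA it was 1.48, 0.81 and 0.90 against control 1, 2 and 3. Control 3 was thus nearest to IPA among the lower transcripts, and control 1 was farthest among the higher ones. What these differences between controls come from was not tested, and the labels give no batch.

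**Figure D4:**
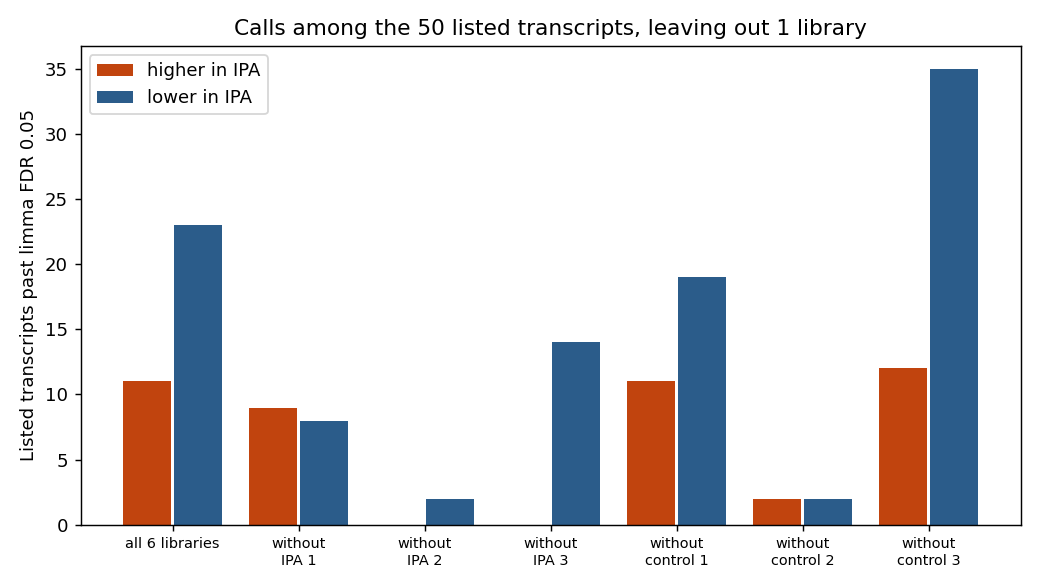
Number of the 50 listed transcripts past limma's FDR of 0.05 (y axis), higher in IPA on the left and lower in IPA on the right of each pair of bars, with all 6 libraries and leaving out 1 library at a time. Leaving out control 3 gives the most calls (47) and leaving out IPA 2 the fewest (2).

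The edge of the list runs through several of these genes. Just inside, in the authors' deposited table, were a ferritin transcript with a log2 fold change of 1.01 and the NIP5-1 transcript with -1.01, and by FDR the KAT5 transcript at 0.0447 and TIP3-2 at 0.0415. Outside the list were a TIP2-1 isoform at 81.1, 116 and 106 in IPA, against 52.4, 64.2 and 36.6 in control, with a log2 fold change of 1.00 by limma, and a ferritin isoform at 47.8, 64.8 and 72.7 in IPA, against 18.9, 35.0 and 42.5 in control, with 0.99. The authors' fold changes of these 2 isoforms are not given, and limma's values are on another scale. How near the 2 lay to the authors' cutoff is therefore not known. Of the 50, 26 had in the authors' deposited table a log2 fold change under 1.2 in size.

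Other transporters on the deposited list, grouped by words in their descriptions, are given for comparison, and they too were chosen by the authors on these libraries. Of the 5093 transcripts of the deposited list 68.4% passed limma, 37.3% risen and 31.1% fallen, and the difference between these groups of genes was not tested. Of 32 transcripts of 14 genes matched by nitrate, ammonium and phosphate transporter, 16 rose, 1 fell and 15 did not pass, with a median log2 fold change of 1.10. The 16 and the median include the transcripts of putative glycerol-3-phosphate transporters 1 and 5, which all rose and were matched only through the words phosphate transporter. Named after their values were seen, Low affinity inorganic phosphate transporter 1 was at 62.4, 119 and 249.9 in IPA, against 31.4, 29.8 and 22.6 in control (log2 2.13 ± 0.43), with the IPA libraries far apart. It did not pass limma's threshold without control 1 (FDR 0.122), without control 2 (0.0696) or without IPA 2 (0.0774). Protein NRT1/ PTR FAMILY 6.3, whose Arabidopsis namesake is a nitrate transporter and sensor, had a transcript at 8.30, 7.82 and 9.29 in IPA, against 2.50, 3.18 and 3.20 in control, past the threshold in every fit that left out 1 library (log2 1.38 ± 0.19). Another listed transcript of that gene did not pass (limma FDR 0.0704). A further one rose but lost its call without control 2 (limma FDR 0.0507), IPA 2 (0.0931) or IPA 3 (0.0775). Of 19 transcripts of 13 genes of other ion transporters, 8 rose, 5 fell and 6 did not pass. Cation/H(+) antiporter 19, of an exchanger family for potassium and other cations, rose (log2 1.61 ± 0.23), as did calcium pumps and exchangers. Those that fell were 2 magnesium transporters and 3 genes of cyclic nucleotide-gated channel 20, while channel 2 rose. Of 9 transcripts of 3 proton pump genes, 7 of 2 subunits of the vacuolar V-type ATPase fell, 1 of a plasma membrane ATPase rose and 1 did not pass. Apart from the antiporter and 1 channel 20 transcript, each call among these ions and pumps was lost in at least 1 limma fit without 1 library.

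Genes close to the members in sulfur handling also went both ways. Of the 4 genes matched by metal handling words 3 rose, and 1 had a negative fold change and did not pass. Of 20 transcripts of 7 genes matched for sulfur assimilation and chelation, 6 rose, 7 fell and 7 did not pass. 5'-adenylylsulfate reductase 3, chloroplastic, the enzyme that reduces activated sulfate, was at 23.7, 31.1 and 33.4 in IPA, against 8.57, 15.3 and 14.0 in control (log2 1.21 ± 0.24), but not past limma's threshold without IPA 2 (FDR 0.0829) or without IPA 3 (0.0615). Cysteine synthase (TRINITY_DN13215_c0_g1), which builds sulfide into cysteine, was at 92.5, 78.3 and 54.4 in IPA, against 227, 217 and 208 in control in its most abundant listed transcript (log2 -1.56 ± 0.21), called in every fit that left out 1 library. Another gene (TRINITY_DN3291_c0_g1), described as bifunctional L-3-cyanoalanine synthase/cysteine synthase, went the other way, and its listed transcripts rose. The most abundant was at 3.45, 3.58 and 5.81 in IPA, against 0.935, 1.08 and 2.08 in control (log2 1.37 ± 0.27). It did not pass limma's threshold without control 2 (FDR 0.0823), IPA 2 (0.0588) or IPA 3 (0.0640). Metal tolerance protein 1, which in Arabidopsis moves zinc into the vacuole, was the description of 2 genes that both rose, at 33.6, 40.9 and 35.1 in IPA, against 16.5, 16.0 and 17.4 in control (log2 1.11 ± 0.17) and at 5.83, 7.57 and 6.43 in IPA, against 1.09, 2.35 and 1.74 in control (log2 1.71 ± 0.24), and both calls stood in each of the 6 fits without 1 library. Of the 10 transcripts of 4 genes matched by the metal handling words, 7 rose, 0 fell and 3 did not pass, with a median log2 fold change of 1.65. Metal tolerance protein 2, the gene with the negative fold change, had 2 transcripts that did not pass. The remaining match of the metal handling words was ferredoxin-nitrite reductase, an enzyme of nitrogen assimilation. Its transcripts are part of these counts and of the median, which therefore do not describe metal handling alone. These genes, the antiporter and the ATPases were also named after their values were seen.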

How the data were processed

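The members, gene lists and classes were chosen with earlier results of these data known. Groups and replicate numbers come from the titles of the 3 IPA and 3 control samples. The authors deposited normalised read counts, a signal scaled per library, and a list of transcripts that holds, per the file headers, log2 values (fold change and mean CPM), a test score, p-values and FDRs. Per the submitters' processing notes, BWA, featureCounts, edgeR, FastQC and Trimmomatic were among the tools; settings, and whether counting used strand, were not given, so antisense reads cannot be told apart. Every value was a whole multiple of 1 read (100% within 0.01 reads), and reads were recovered from this.

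filterByExpr of edgeR 4.0.16 (minimum count 10, minimum total 15) kept 78722 transcripts and removed 3065. Log2(value + 0.5) was compared between IPA and control in R 4.3.3 with limma 3.58.1 (trend, robust), with Benjamini-Hochberg adjustment at 0.05, and the same was done for sums over a gene's isoforms. The limma step was also run on simulated counts scaled by library totals, with changes planted only in the more abundant transcripts. That run does not cover low transcripts, the authors' scaling or the dependence on single libraries. As a count test on whole reads, the quasi-likelihood test of edgeR gave 6393 calls, against 6587 by limma, and DESeq2 1.42.0 was run too. Other alternatives were the pseudocount, no filter, the scaling, a replicate block and leaving out each library.

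Named by rule were, per class, the most abundant transcript, the largest rise and fall, and 1 transcript of every gene in classes of up to 4 genes. The other transcripts of member genes were named after their values were seen, so that each gene is described. The words for boron transporters and for Nramp and metal transporters matched 0 descriptions.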

Additional observations from a re-analysis of the deposited data

How the results depend on the processing

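The sign of the fold change stayed that of the full fit in every one of the 50 transcripts and 23 gene sums under all 14 alternatives. The choice of the members on these same libraries favours this. The number of the 50 past limma's threshold was 23 with the replicate number as a block and 33 to 35 with another pseudocount (0.1 or 1), no filter, another scaling or edgeR's quasi-likelihood test, and DESeq2 called 46. Leaving out 1 library gave 2 to 47 of the 50 transcripts, 0 to 20 of the 23 gene sums (0 by limma without control 2, with 17 at an unadjusted p under 0.05; edgeR's quasi-likelihood test called 14 and DESeq2 20 with all libraries) and 1278 to 10465 of all transcripts. Over all transcripts the count was 6587, against 11817 with library totals, where 84.1% rose against 53.7%, 10358 with DESeq2 and 4377 with the replicate block, and the block gave 7 of the 23 gene sums. Deviations from the group mean correlated at -0.09, 0.08 and -0.13 between samples of the same number, and at -0.09 to 0.13 between samples of different numbers. With 3 samples per group this cannot tell whether samples were paired, and the labels do not say. The cause of the differences between these fits was not tested. Depth limits transcripts of few reads, such as those of SIP2-1, with 2 to 79 reads per library.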
